A study of Mus musculus with 21 samples.

Results

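Marco, Msr1 and Cd163, which encode scavenger receptors of macrophages, are 3 of the 770 genes counted in mouse lung RNA with a NanoString immune panel. They were taken by name from the panel, and they were chosen by earlier results of the same libraries, in which Marco and Msr1 differed in opposite directions between lungs exposed to dust extract and lungs exposed to saline. Their values in that comparison are therefore given as a description with no test. The libraries came from 21 A/J mice of both sexes, an inbred strain that readily forms lung tumors, aged 8 to 12 weeks on arrival. HDE + NNK mice (n = 5) received 50 µL of 12.5% HDE, a sterile-filtered water extract of dust from swine confinement barns, into the nose 3 times a week for 24 weeks. In week 4 they also had 1 intraperitoneal dose of 100 mg/kg NNK, a tobacco-specific nitrosamine that causes lung tumors. HDE only mice (n = 4) had the extract without NNK, saline + NNK mice (n = 6) had saline in place of the extract and the same NNK dose, and saline only mice (n = 6) had neither. Mice without NNK received phosphate-buffered saline in its place. Per the study's methods, the mice were pooled from 2 experiments, and the control mice of the later experiment also received ethanol in saline into the vein. The airspaces were washed before the lung was collected and tumors were cut out, so the RNA is that of lavaged lung outside the tumors. In such bulk RNA, fewer cells of a type and less RNA per cell cannot be told apart.

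Scavenger receptors bind modified lipoproteins, bacterial surface molecules, inhaled particles and dead cells, and bring them into the cell. Marco (macrophage receptor with collagenous structure) and Msr1 (macrophage scavenger receptor 1, also called SR-A) are class A receptors with a collagen-like stalk. Marco is known as a receptor of alveolar macrophages for unopsonized particles and bacteria, and Msr1 as a receptor for acetylated and oxidized low-density lipoprotein on many tissue macrophages. Cd163, a receptor of the cysteine-rich scavenger family, takes up complexes of haptoglobin and hemoglobin and is a marker of resident tissue macrophages.

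The panel measured each gene with 1 probe pair. The probe of Marco was designed on the transcript NM_010766.2 (target from base 350), that of Msr1 on NM_001113326.1 (base 555) and that of Cd163 on NM_053094.2 (base 3225). No genome build is given for the panel. RefSeq's promoter table for GRCm38.p6 held 2 of the 3 genes. Their start-site windows, 250 bases before the start and 50 after it, are printed because the 2 genes lay on opposite sides of 0 in the comparison of HDE with saline. Capitals mark a match to GAGGAA, the core bound by the macrophage factor PU.1, to TGANTCA (AP-1) or to TGACNNNGC (core of the antioxidant response element), searched on both strands. The Marco window is chr1:120504975-120505274 on the minus strand and the Cd163 window is chr6:124304401-124304700 on the plus strand, both written 5′ to 3′ along the gene.
Marco: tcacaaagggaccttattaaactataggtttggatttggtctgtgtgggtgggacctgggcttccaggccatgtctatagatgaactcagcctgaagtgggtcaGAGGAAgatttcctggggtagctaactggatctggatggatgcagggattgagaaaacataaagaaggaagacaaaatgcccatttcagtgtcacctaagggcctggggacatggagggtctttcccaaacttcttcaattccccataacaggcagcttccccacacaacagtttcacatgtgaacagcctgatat
Cd163: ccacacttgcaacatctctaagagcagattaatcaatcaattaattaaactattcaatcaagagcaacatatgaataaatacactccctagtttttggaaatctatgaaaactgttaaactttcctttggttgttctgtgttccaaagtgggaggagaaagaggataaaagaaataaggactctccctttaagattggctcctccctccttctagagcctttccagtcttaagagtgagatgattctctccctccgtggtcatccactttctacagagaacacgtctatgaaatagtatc
The Marco window held 1 match, to GAGGAA, starting 146 bases before the start site (position -146). The Cd163 window held none of the 3 motifs. Over all 32851 windows of the table, 28.3% held GAGGAA, 7.81% held TGANTCA and 12.4% held TGACNNNGC, so the match in the Marco window is of a kind found in many promoters.

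Library totals ran from 174604 to 529829 counts over the 770 genes, and the 8 negative-control probes, which match no mouse transcript, read between 2 and 40 counts. The libraries were counted in 2 runs. Mean negative-control counts were 19.6 to 27.6 in run 1 and 7.75 to 17.5 in run 2, and each group had libraries in both runs. The geometric mean of the scaling genes Eef1g, Oaz1, Rpl19 and Sdha was 496 to 1510 counts in HDE libraries and 715 to 2283 in saline libraries. Normalized counts are raw counts divided by this mean and brought to its average over all libraries. The saline only library of run 2 lane 3 carried a quality mark in the file, and the HDE only library of run 2 lane 12 stood near the saline libraries for Msr1, so values without both are given where they move a result by over 1.5 times or turn its sign, a setting chosen after the data were seen. Markers of cell types present in lung were checked, none of them specific to lung, so they cannot test the lung label itself. The endothelial genes Pecam1 and Kdr, the epithelial genes Epcam and Cdh1 and the macrophage genes Cd68 and Lyz2 were above the negative controls in 21 of 21 libraries.

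Marco was the gene with the lowest log2 fold change of HDE over saline among the 388 genes tested. In HDE + NNK lungs it had 177, 163, 145 and 128 normalized counts in run 1 and 175 in run 2. HDE only lungs had 135 and 90.8 in run 1 and 47.2 and 51.6 in run 2. In saline + NNK lungs it ran from 158 to 397 with a median of 249, and in saline only lungs from 109 to 402 with a median of 237. The HDE and saline groups overlapped: 10 of 12 saline libraries lay above all 9 HDE libraries, and the 2 others (158 and 109) lay among them. In this comparison 49.5% of the 388 genes were called by edgeR (adjusted p below 0.05), 39.4% as higher and 10.1% as lower in HDE lungs. Marco averaged 124 ± 49.7 in HDE lungs (SD, n = 9) and 252 ± 89.2 in saline lungs (SD, n = 12). The log2 fold change from the fit over all genes was -1.16 (standard error 0.22). It was -0.73 (standard error 0.29) for HDE + NNK over saline + NNK and -1.59 (standard error 0.34) for HDE only over saline only. Within run 1 the value for HDE over saline was -0.96 and within run 2 it was -1.44.

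**Figure D1:**
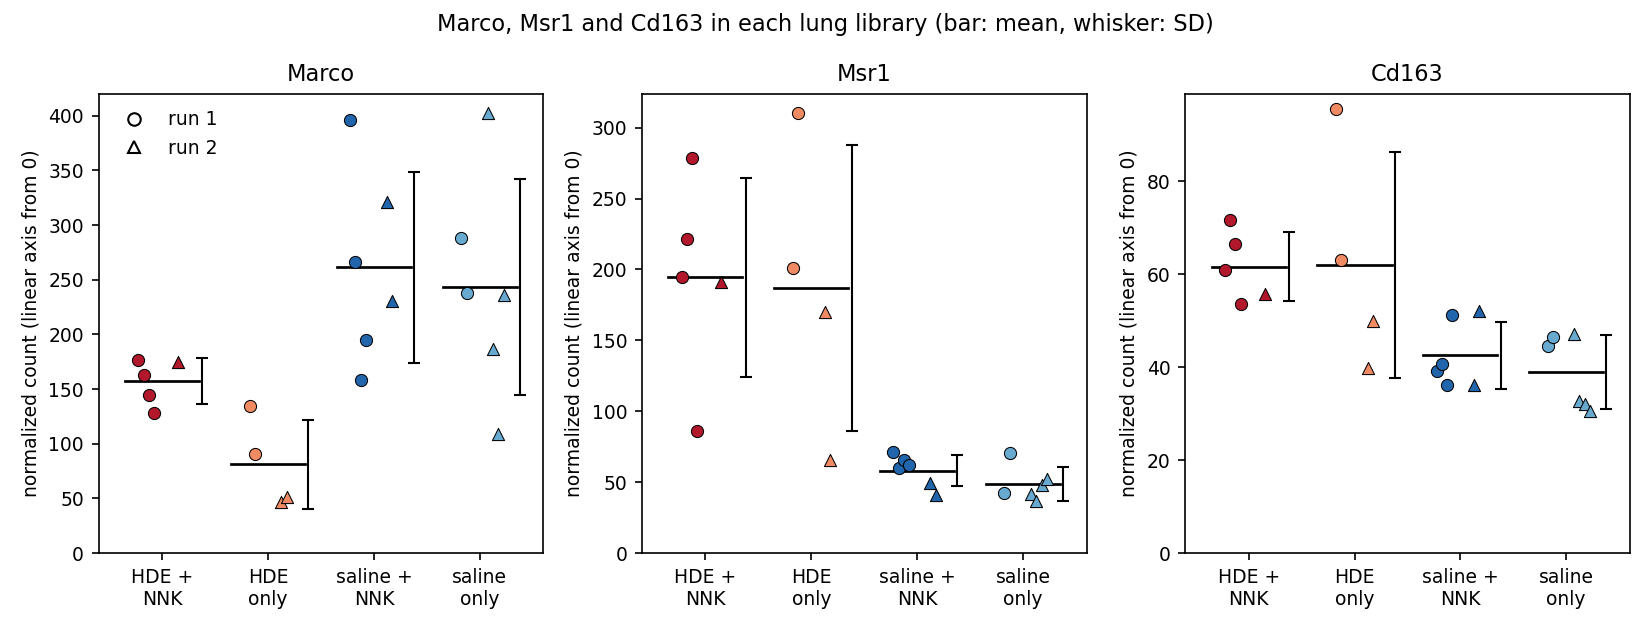
Normalized counts (y axis, linear from 0) of Marco, Msr1 and Cd163 in each of the 21 libraries by group (x axis). Circles are run 1 and triangles run 2, horizontal bars are group means and whiskers are SD. Marco is low in the HDE groups and lowest in HDE only lungs of run 2 (47.2 and 51.6), while Msr1 reaches at most 71.3 in saline lungs and exceeds that level in 8 of 9 HDE lungs.

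Msr1 went the other way. In HDE + NNK lungs it had 195, 221, 278 and 86.0 normalized counts in run 1 and 191 in run 2. HDE only lungs had 201 and 310 in run 1 and 170 and 65.9 in run 2. In saline + NNK lungs it ran from 40.9 to 71.3 with a median of 61.1, and in saline only lungs from 37.1 to 70.4 with a median of 45.4. Of the 9 HDE libraries, 8 lay above all 12 saline libraries, and the HDE only library at 65.9 lay among them. Msr1 averaged 191 ± 79.1 in HDE lungs (SD, n = 9) and 53.5 ± 12.0 in saline lungs (SD, n = 12), which is 3.57 times as high. The log2 fold change was 1.83 (standard error 0.21), which was rank 12 from the top among the 388 genes. It was 1.75 (standard error 0.29) with NNK on both sides and 1.91 (standard error 0.31) without NNK. Within run 1 it was 1.88 and within run 2 it was 1.75. Msr1 reached the minimum mean of 87 raw counts (it averaged 102 over the 21 libraries) only through the HDE libraries, where it averaged 155 raw counts against 61.5 in saline libraries, so a gene with this pattern could enter the test only by being high with HDE.

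Cd163 was low in every group, with group medians of 2.17 to 3.17 times the mean of the negative controls. In HDE + NNK lungs it had 60.9, 71.6, 66.4 and 53.6 normalized counts in run 1 and 55.7 in run 2. HDE only lungs had 95.6 and 63.1 in run 1 and 39.8 and 49.8 in run 2. In saline + NNK lungs it ran from 36.2 to 52.1 with a median of 39.9, and in saline only lungs from 30.6 to 47.2 with a median of 38.7. Of the 9 HDE libraries, 7 lay above all 12 saline libraries. With a mean of 47.3 raw counts Cd163 did not pass the minimum of 87, so its fold changes come from a fit without that minimum (766 genes). There its log2 fold change of HDE over saline was 0.60 (standard error 0.16), beside a median of 0.43 over all 766 genes and of 0.15 over the 388 genes that passed the minimum. The negative-control probes, scaled in the same way, averaged 26.8 ± 14.7 in HDE lungs (SD, n = 9) and 17.6 ± 6.59 in saline lungs (SD, n = 12). Their mean was 1.52 times as high in HDE lungs, and that of Cd163 was also 1.52 times as high (61.8 against 40.8). The highest control value, 57.4, was in the HDE only library of run 1 lane 12, where Cd163 had 63.1. By medians the controls had 26.1 in HDE lungs and 18.8 in saline lungs, and Cd163 had 60.9 and 39.9. The part of the controls in the Cd163 difference was not tested. After subtracting each library's mean negative-control count the log2 fold change was 0.63, and with scaling by trimmed mean (TMM) it was 0.23.

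Relative to the negative controls of the same library, raw counts of Marco were 1.58 to 11.9 times their mean in HDE libraries and 6.61 to 41.1 times in saline libraries. Msr1 was at 2.50 to 24.1 times in HDE libraries and 1.49 to 7.10 times in saline libraries. Cd163 was at 1.10 to 5.65 times in HDE libraries and 1.31 to 4.63 times in saline libraries, so that its 2 ranges overlapped over most of their length on this scale. A library's detection limit was set at the mean of its negative controls plus 2 SD. Marco exceeded it in 8 of 9 HDE libraries and 12 of 12 saline libraries, Msr1 in 9 of 9 HDE libraries and 11 of 12 saline libraries, and Cd163 in 7 of 9 HDE libraries and 10 of 12 saline libraries.

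**Figure D2:**
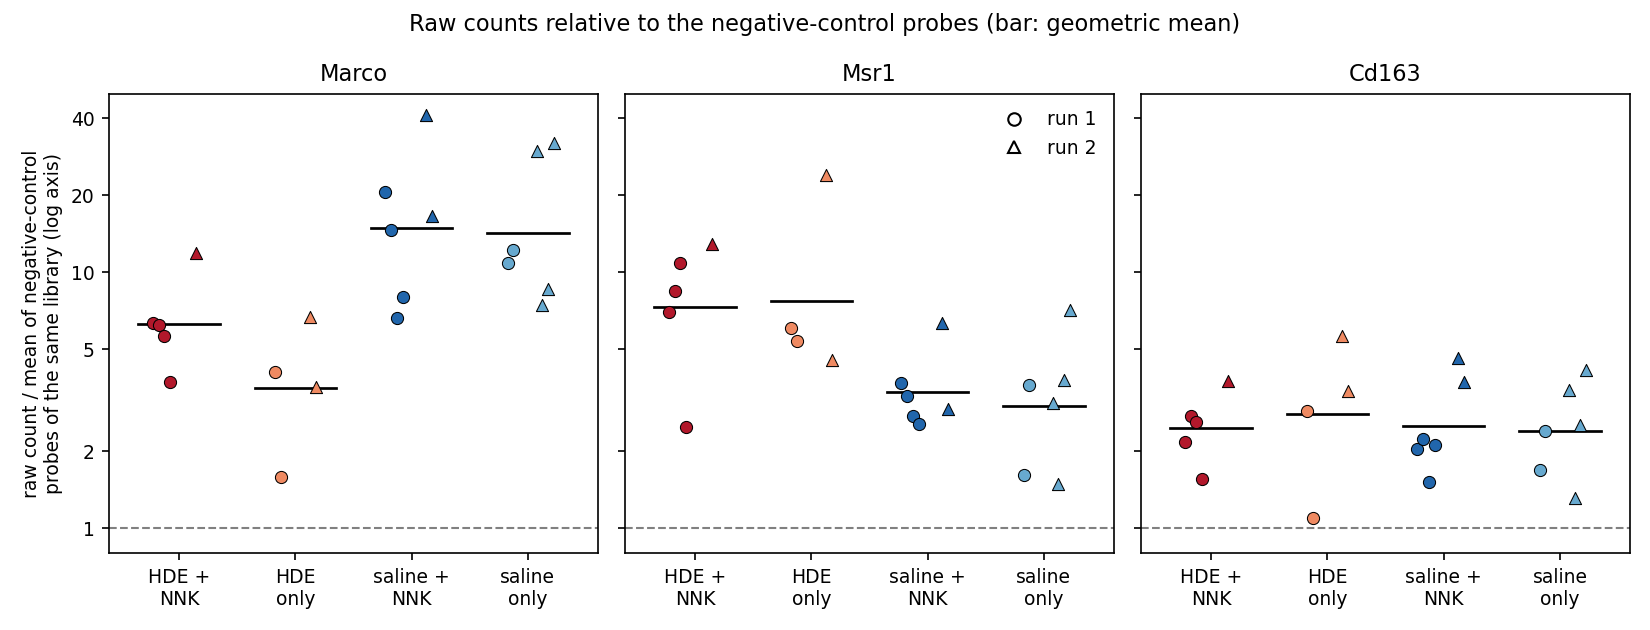
Raw counts of the 3 genes divided by the mean of the negative-control probes of the same library (y axis, log scale; the dashed line marks 1) by group (x axis). Circles are run 1, triangles run 2 and bars geometric means. Cd163 stays between 1.10 and 5.65 in all libraries, while Marco reaches 41.1 in a saline + NNK library and Msr1 24.1 in an HDE only library.

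Of 25 scavenger receptor genes listed from general knowledge, 13 were on the panel, and 7 besides Marco and Msr1 passed the count minimum. In HDE lungs 4 of these 7 were higher and 1 was lower than in saline lungs (edgeR, quasi-likelihood test over all 388 genes, adjusted p below 0.05). The background is the 39.4% of genes called higher and 10.1% called lower, and the median log2 fold change of the 7 was 0.47 against 0.15 for all genes. Clec7a, the beta-glucan receptor Dectin-1, averaged 1471 ± 584 normalized counts in HDE lungs and 386 ± 62.9 in saline lungs (SD, n = 9 and 12), a log2 fold change of 1.93 (adjusted p = 3.61e-08), and 9 of 9 HDE libraries lay above all saline libraries. Cd68, a lysosomal protein of macrophages that binds oxidized lipoprotein, rose by 1.27 on the log2 scale (adjusted p = 1.38e-06). Mrc1, the mannose receptor, rose by 0.83 (adjusted p = 4.49e-06) and Cxcl16, a chemokine that also acts as a receptor for oxidized lipoprotein, rose by 0.47 (adjusted p = 0.000606). Cd36, a class B receptor for fatty acids and oxidized lipoprotein that endothelium also carries, was the gene that fell, with 4666 ± 813 in HDE lungs and 5986 ± 1046 in saline lungs (SD, n = 9 and 12) and a log2 fold change of -0.35 (adjusted p = 0.00794). The class A receptor Colec12 (0.10, adjusted p = 0.334) and the lipoprotein receptor Lrp1 (0.16, adjusted p = 0.285) did not pass. Both turned negative with TMM (-0.07 and -0.04) and with positive-control scaling, while the calls of the other 5 held with TMM. With positive-control scaling 2 of the 7 (Clec7a and Cd68) were called. Cd5, Cd6 and Cd44 were under the minimum and above the detection limit in 6, 8 and 1 of 21 libraries.

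**Figure D3:**
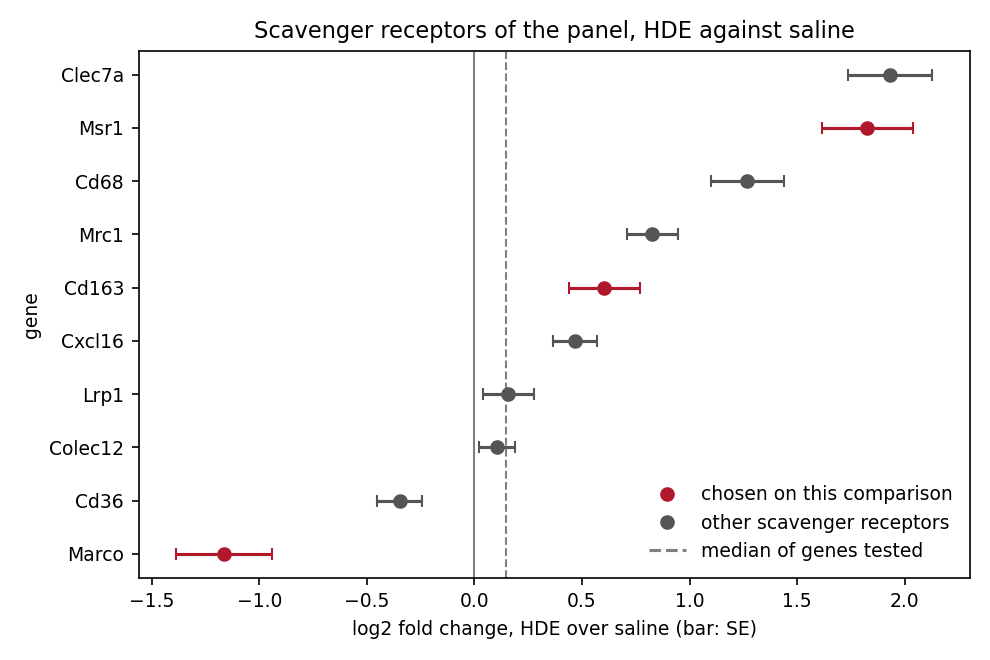
Log2 fold change of HDE over saline (x axis, with standard errors as bars) for Marco, Msr1 and Cd163 (red, chosen on this comparison and not tested) and the 7 other scavenger receptors that passed the count minimum (gray), ordered by value (y axis). The dashed line is the median of the 388 genes (0.15). Marco at -1.16 and Cd36 at -0.35 are the 2 genes below 0, and Clec7a (1.93) and Msr1 (1.83) lie at the top.

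Most tested macrophage markers were higher in the lungs in which Marco was low. Besides Marco, 7 listed markers of alveolar macrophages were on the panel and none was at 0. Their summed level was 11930 to 52275 normalized counts in HDE libraries and 5037 to 8796 in saline libraries. Most of this sum came from Chil3 (mean 25405 in HDE lungs and 2350 in saline lungs) and Cd9 (3609 and 3168). The rise in the sum is thus mainly that of Chil3. Of the 5 that were tested, 4 were higher in HDE lungs (Chil3, a chitinase-like protein of alveolar macrophages, at 3.45, the integrin Itgax at 1.61, the receptor chain Csf2rb at 1.45 and Mrc1 at 0.83 on the log2 scale, with adjusted p from 4.61e-08 to 4.49e-06 in edgeR's test). The tetraspanin Cd9 did not pass (0.19, adjusted p = 0.0781). With positive-control scaling 3 of the 5 were called, without Mrc1. All 12 tested markers of monocytes and interstitial macrophages were higher, beside 39.4% of the 388 genes, with a median log2 fold change of 1.14 and a range from 0.32 to 2.20, the highest being Trem2, a lipid-sensing receptor. Trem2 and the integrin Itgam reached the count minimum only through the HDE libraries, and the other 10 reached it in both exposures. With TMM 11 of the 12 were called (all but the M-CSF receptor Csf1r), and with positive-control scaling 10 (all but Csf1r and the lipoprotein gene Apoe). Their summed level over 14 genes was 54209 to 100574 in HDE libraries and 35983 to 47162 in saline libraries. Most of that sum came from Lyz2 (mean 75696.5 in HDE lungs and 37684.4 in saline lungs), so its rise is mainly that of Lyz2. The 7 endothelial markers were all lower, beside 10.1% of the 388 genes, with log2 fold changes from -0.67 to -0.29 (6 of the 7 with positive-control scaling, without Cd34), and their summed level was 6389 to 11398 in HDE libraries and 10692 to 13421 in saline libraries. The part of these shifts in the values of Marco, Msr1 and Cd163 was not tested.

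Markers of some other cell types differed with HDE as well. The B cell genes Ms4a1 (1.71, adjusted p = 1.18e-06) and Cd79b (1.26, adjusted p = 2.13e-06) were higher in HDE lungs, and the summed level of 7 B cell markers was 456 to 1425 in HDE libraries and 201 to 633 in saline libraries. The 3 eosinophil markers Ccr3, Il5ra and Prg2 were under the count minimum, and their sum was 125 to 252 in HDE libraries and 17.5 to 90.2 in saline libraries. They were above the detection limit in 6, 7 and 8 of 21 libraries. All 3 were under it in most saline libraries and 0 in most HDE libraries. The scaled negative controls were also higher in HDE lungs, and their part in this sum was not tested. The only tested T cell marker, Cd3g, was higher by 0.67 (adjusted p = 0.000312) and the only tested neutrophil marker, S100a8, by 0.48 (adjusted p = 0.0374). The Cd3g call was lost with positive-control scaling (adjusted p = 0.287), and Cd3g reached the count minimum only through the HDE libraries. The S100a8 call was lost with TMM (adjusted p = 0.1502), all panel housekeeping genes (adjusted p = 0.0804) and positive-control scaling (adjusted p = 0.584). Of 3 tested epithelial markers, Muc1 was higher (0.49, edgeR adjusted p = 1.30e-05). Epcam (0.04, adjusted p = 0.720) and Cdh1 (-0.15, adjusted p = 0.0812) did not pass. With TMM Cdh1 was called lower (-0.32, adjusted p = 0.00159), and with positive-control scaling 0 of the 3 were called.

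Of 21 genes for signals known to act on these receptors in macrophages, 20 were on the panel and 12 were tested. In HDE lungs 7 were higher and 0 lower, beside 39.4% and 10.1% of the 388 genes, with a median log2 fold change of 0.38 against 0.15 for all 388 genes. Signaling by GM-CSF, which maintains alveolar macrophages, was represented by its receptor chain Csf2rb (387 ± 115 in HDE lungs and 141 ± 24.0 in saline lungs, SD, n = 9 and 12, log2 fold change 1.45, adjusted p = 1.50e-07). The GM-CSF gene Csf2 (77.6 ± 26.5 in HDE lungs and 47.8 ± 12.5 in saline lungs) and Pparg, the lipid-sensing factor that GM-CSF induces (112 ± 21.9 in HDE lungs and 61.1 ± 16.0 in saline lungs), were under the minimum and were not tested. The scaled negative controls were 1.52 times as high in HDE lungs, and their part in the values of listed genes under the minimum was not tested. Among endotoxin and lipopeptide sensors, Cd14 rose by 1.51 (adjusted p = 6.09e-08), Tlr2 by 0.86 (adjusted p = 1.24e-06, having reached the count minimum only through the HDE libraries) and Tlr4 by 0.44 (adjusted p = 0.00303), while the adaptor Myd88 had 0.24 (adjusted p = 0.0573). Tfeb, a regulator of lysosomal genes, rose by 0.73 (adjusted p = 0.00171). Tgfb1 rose by 0.47 (adjusted p = 0.000145) and the M-CSF receptor Csf1r by 0.32 (adjusted p = 0.0133). For the M-CSF ligand Csf1 (-0.01, adjusted p = 0.957) and the interleukin-4 and interleukin-13 relay Il4ra (0.09, adjusted p = 0.569) and Stat6 (0.14, adjusted p = 0.169) no difference was detected. Stat3, which relays interleukin-10 signals, had -0.005 (adjusted p = 0.968). With TMM scaling 5 of the 12 were higher and 1 lower, since Csf1r (0.13) and Tlr4 (0.26) no longer passed and Stat3 fell by 0.19 (adjusted p = 0.0377), and with positive-control scaling 2 (Cd14 and Csf2rb) were called. Il4, Il6 and Ifng were above the detection limit in 0 of 21 libraries. Il10, Il13 and the interleukin-10 receptor gene Il10ra, also under the minimum, were above it in 11, 10 and 20 libraries. Il10 had 53.7 ± 32.8 in HDE lungs and 27.8 ± 17.0 in saline lungs (SD, n = 9 and 12). Il13 had 49.2 ± 33.7 and 23.5 ± 17.7, and Il10ra had 73.4 ± 23.3 and 52.4 ± 15.2. Csf1, Il4ra, Stat6 and Stat3, past the first 8 of the list by adjusted p, and the genes under the minimum were named after their values were seen.

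The comparisons of NNK with no NNK are not those by which the genes were chosen, but the value of Marco after NNK in HDE lungs was among the earlier results known at that choice, so its rank here is no independent evidence. After NNK, 0 of 388 genes were called in HDE lungs, 0 in saline lungs, 0 over both and 0 in the interaction of HDE and NNK (0% each, edgeR at an adjusted p under 0.05), and 8, 4, 9 and 4 genes had an unadjusted p under 0.05. Marco had the smallest p of all 388 genes in HDE lungs (rank 1), with 158 ± 20.8 normalized counts in HDE + NNK lungs (SD, n = 5) and 81.1 ± 40.8 in HDE only lungs (SD, n = 4). Of the 5 HDE + NNK libraries, 4 lay above all 4 HDE only libraries, and the lowest at 128 lay under the highest HDE only library at 135. The log2 fold change was 0.98 (standard error 0.35, 95% interval 0.26 to 1.69), and it did not pass over all genes (edgeR adjusted p = 0.996). In saline lungs it was 0.11 (95% interval -0.45 to 0.67, edgeR adjusted p = 0.997), with 261 ± 87.1 in saline + NNK lungs and 243 ± 98.6 in saline only lungs (SD, n = 6 each). The difference between both changes was 0.86 (95% interval -0.04 to 1.77, edgeR adjusted p = 1.00, rank 5 by p), and over both exposures the change was 0.54 (edgeR adjusted p = 0.97, rank 2). The larger change in HDE lungs was thus not shown to differ from that in saline lungs. Without the 2 doubted libraries the value was 0.82 in HDE lungs, 0.31 in saline lungs and 0.52 for the difference between them.

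The size of the Marco difference between HDE + NNK and HDE only lungs varied with the run and was smaller in the table with a floor. Within run 1 (4 HDE + NNK and 2 HDE only libraries) the log2 fold change was 0.42, and within run 2 (1 and 2 libraries) it was 1.83. With run as a term, in the fit without a count minimum, it was 0.95, against 0.98 without that term. Marco stood at 29 to 93 raw counts in HDE only libraries, and 1 of the 4, at 36, was under its detection limit. The second table of the series, in which values under 87 were raised to 87, carries the sex of each animal. There the 3 HDE only libraries at the floor for Marco were all from males, the HDE only female had 93 counts, and the HDE + NNK group had 3 females (148, 171 and 148 counts) and 2 males (103 and 129). With the floor the log2 fold change was 0.15, and with sex as a further term it was 0.07. The floor raised 3 of the 4 HDE only values of Marco and no HDE + NNK value, so it shrinks this difference by construction. For HDE over saline, sex as a term gave -0.69 for Marco (-0.75 without it) and 1.33 for Msr1 (1.31 without it) in that table. Groups were unbalanced in sex, with 3 females and 2 males in HDE + NNK, 1 and 3 in HDE only, 3 and 3 in saline + NNK, and 5 and 1 in saline only. The part of sex in these differences was not tested on counts without the floor, and no fit was made within a sex.

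No NNK difference was detected for Msr1. It had 194 ± 69.9 normalized counts in HDE + NNK lungs (SD, n = 5) and 187 ± 101 in HDE only lungs (SD, n = 4), a log2 fold change of 0.08 (95% interval -0.57 to 0.73, edgeR adjusted p = 0.996). It had 58.2 ± 11.1 in saline + NNK lungs and 48.7 ± 11.8 in saline only lungs (SD, n = 6 each), a log2 fold change of 0.23 (95% interval -0.37 to 0.84, edgeR adjusted p = 0.997). The interaction was -0.16 (95% interval -1.04 to 0.73) and the change over both exposures 0.16 (95% interval -0.29 to 0.60). Without the 2 doubted libraries Msr1 had -0.20 in HDE lungs, -0.40 for the interaction and 0.00045 over both exposures. For Cd163, in the fit over 766 genes in which 0 genes (0%) were called in any NNK comparison and 9, 8, 15 and 4 had an unadjusted p under 0.05, the changes were 0.00 in HDE lungs (95% interval -0.58 to 0.58), 0.13 in saline lungs (95% interval -0.31 to 0.58), 0.07 over both (95% interval -0.28 to 0.41) and -0.13 for the interaction (95% interval -0.82 to 0.55). Without the 2 doubted libraries it had -0.088 in HDE lungs and -0.28 for the interaction.

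**Figure D4:**
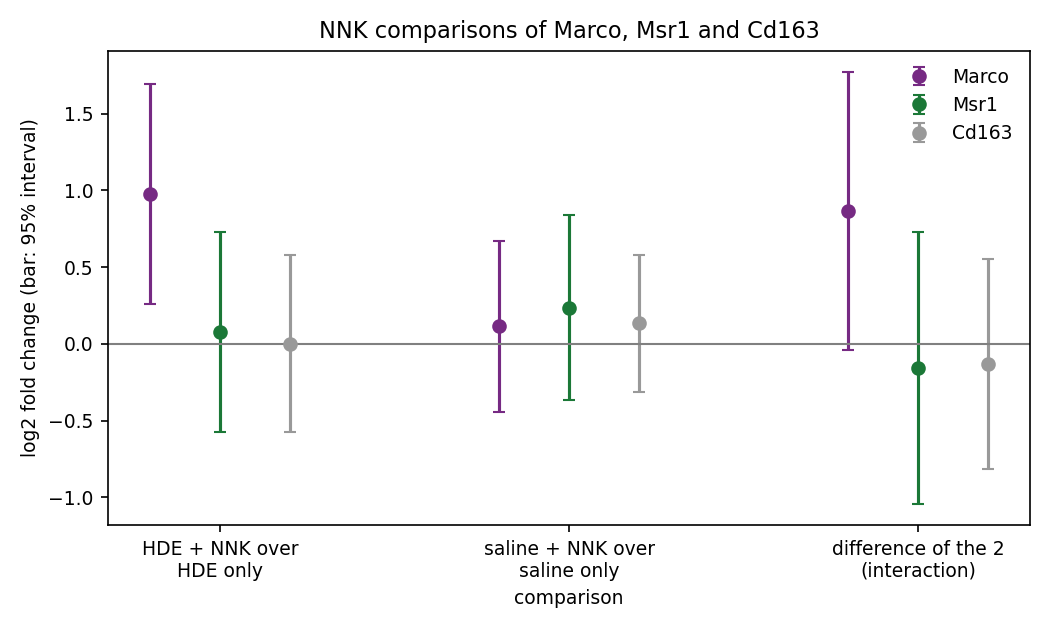
Log2 fold changes (y axis, with 95% intervals) of Marco, Msr1 and Cd163 for HDE + NNK over HDE only, saline + NNK over saline only, and the difference of both (x axis). The Marco interval in HDE lungs (0.26 to 1.69) lies above 0 before adjustment over all genes, and the 8 other intervals include 0.

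The ratio of the Marco count to the Msr1 count within a library does not depend on the scaling genes. Its absolute size compares 2 probes and carries no meaning for their transcripts, so only its differences between libraries were read. It was 0.91, 0.74, 0.52 and 1.49 in HDE + NNK lungs of run 1 and 0.91 in run 2. It was 0.67 and 0.29 in HDE only lungs of run 1 and 0.28 and 0.78 in run 2. In saline + NNK lungs it ran from 2.42 to 6.51, and in saline only lungs from 2.26 to 9.58. All 9 HDE libraries lay below all 12 saline libraries, including the HDE only library whose Msr1 count was as low as in saline lungs, which follows from how the genes were chosen. The geometric mean was 0.65 in HDE lungs and 4.54 in saline lungs. Between HDE + NNK and HDE only lungs the log2 ratio differed by 0.92 (1.90-fold, exact two-sided permutation p = 0.0952, adjusted over the 2 tests p = 0.190), where 126 relabellings allow a smallest p of 0.00794. Between saline + NNK and saline only lungs it differed by -0.12 (exact two-sided permutation p = 0.762, adjusted p = 0.762), where 924 relabellings allow a smallest p of 0.00216. Without the 2 doubted libraries this difference was 0.084.

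**Figure D5:**
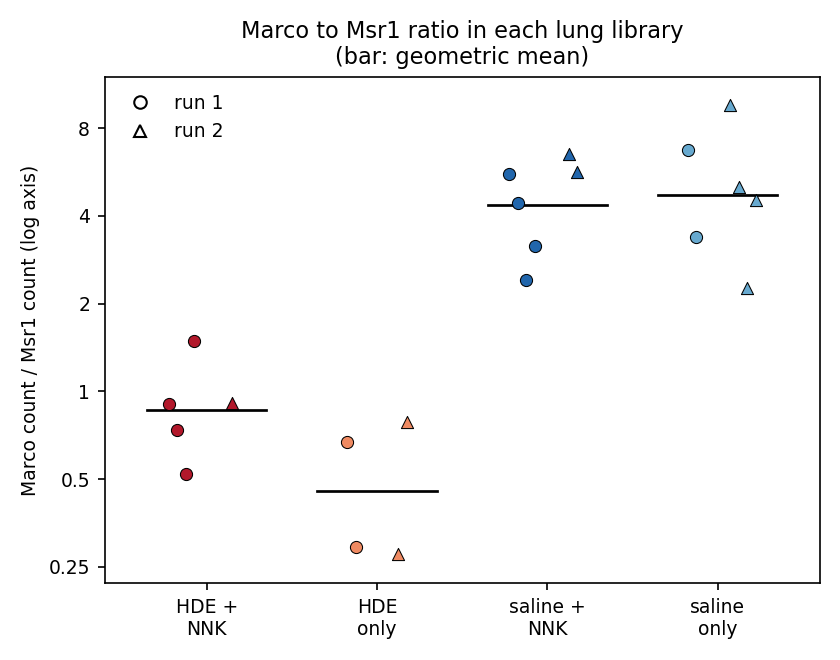
Marco count divided by Msr1 count (y axis, log scale) in each of the 21 libraries by group (x axis). Circles are run 1, triangles run 2 and bars geometric means. The HDE libraries lie between 0.28 and 1.49 and the saline libraries between 2.26 and 9.58.

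Between females and males, in the table with the floor, Marco had a log2 fold change of 0.24 (95% interval -0.22 to 0.70) and Msr1 of 0.10 (95% interval -0.34 to 0.54), both with an adjusted p of 0.984 from edgeR. Of 388 genes 1 (0.258%) was called, the receptor Tlr8, named here after its value was seen. In saline lungs 11 of 12 Msr1 values and in HDE lungs 2 of 9 were at the floor, and Cd163 was at the floor in all 21 libraries, so that this table says little on Msr1 and nothing on Cd163. For Marco 3 of 9 HDE values were at the floor, all from HDE only males. Raised male values also enter its female to male difference, which is limited for that reason.

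Marco and Msr1 moved in opposite directions between exposures but not within groups. Over all 21 libraries the Pearson correlation of log2 normalized counts was -0.46 for Marco and Msr1, and after subtracting group means it was 0.28. For Marco and Cd163 it was -0.20 and, after subtracting group means, 0.58, and for Msr1 and Cd163 it was 0.72 and 0.29. Within the 9 HDE libraries Marco and Msr1 correlated at 0.43 and within the 12 saline libraries at 0.03. All these values describe points that share a library and its scaling factor, and they are given with no test.

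The genes most like each of the 3 over the 21 libraries differed. For Msr1 they were Emr1 (the macrophage surface protein F4/80, r = 0.98), Ctss (the lysosomal protease cathepsin S, 0.98), Cd200r1 (an inhibitory myeloid receptor, 0.96), Cd33 (a sialic acid receptor of myeloid cells, 0.96) and Gusb (lysosomal beta-glucuronidase, 0.96). After subtracting group means, Ctss (0.94), Emr1 (0.93), Vim (0.89), Gusb (0.86) and Cd200r1 (0.86) led, so 4 of the 5 were shared by both rankings. For Marco the highest were lower, with Cdh1 (E-cadherin, 0.65), Il18r1 (0.64), Map3k7 (0.62), Egfr (0.60) and Tgfb2 (0.60) over all libraries. After subtracting group means they were Tlr2 (0.75), the complement gene Hc (0.64), Lbp (0.64), the cholesterol exporter Abcg1 (0.63) and Tlr8 (0.62), none of which was among the first 5. For Cd163 they were Il17ra (0.89), Ceacam1 (0.86), Btk (0.83), Lbp (0.83) and Cd200 (0.80) over all libraries, and Cxcl15 (0.79), Il17ra (0.78), Lbp (0.77), Ceacam1 (0.70) and Map2k1 (0.69) after subtracting group means.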

How the data were processed

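Lung RNA of 21 mice in 4 groups was counted on the NanoString mouse PanCancer Immune panel. For each mouse 50 ng of RNA were hybridized for 16 h, and nSolver 4.0 was used by the authors. They deposited raw counts of 784 probes, which name group, run and lane, and a second table of counts with gene values under 87 raised to 87, which names sex and replicate. Each gene held the same set of values in both tables once the floor was applied (16170 of 16170 values), but columns were not paired through their values, so sex was used only with the second table.

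As in the study's methods, each library was scaled to the geometric mean of its counts of Sdha, Rpl19, Oaz1 and Eef1g. Genes with a mean of at least 87 raw counts (388 besides these 4) entered edgeR's quasi-likelihood test (version 4.0.16, R 4.3.3) with 4 group means and Benjamini-Hochberg adjustment, and all 766 genes in a second fit for Cd163. Intervals are 95% intervals of that fit, and the number of mice limits the precision. Log2 ratios were compared by exact permutation.

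The 3 genes, the gene lists and the tests were chosen with earlier results of these data known, and the Marco value after NNK in HDE lungs was among them. Named genes were the 3, panel scavenger receptors, up to 8 genes per list by adjusted p, and the 5 genes most correlated with each of the 3; others were named after their values were seen. Alternatives were TMM, all panel housekeeping genes, positive controls, background subtraction, other minimums, DESeq2 1.42.0, limma 3.58.1 with a pseudocount of 20, run, sex or replicate as a term, each run alone and leaving out each library. The test had first been tried on simulated counts with known changes.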

Additional observations from a re-analysis of the deposited data

How the results depend on the processing

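The direction of Marco (lower) and Msr1 (higher) in HDE against saline lungs was kept under all alternatives run, with log2 fold changes from -1.50 to -0.69 and from 1.19 to 2.20, and leaving out 1 library gave -1.36 to -1.05 for Marco, 1.66 to 1.97 for Msr1 and 0.45 to 0.69 for Cd163. Both genes were chosen for these directions in the same libraries, so the kept direction is no independent evidence. Scaling moved the median over the 388 genes (log2) to -0.04 with TMM (117 higher and 108 lower genes), 0.06 with all panel housekeeping genes (139 and 71) and -0.14 with positive controls (55 and 31), against 0.15 in the main setting (153 and 39). Low counts limit Cd163 everywhere and Msr1 in saline lungs, and the cause of the changes listed here was not tested unless the setting itself removes genes or libraries.

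Genes called for HDE against saline (192) numbered 112 with 87 counts required in every library, 299 without a minimum and 86 with positive-control scaling. Those for HDE only against saline only (134) numbered 79 and 35 with every library at 87 and positive controls, and 72 in run 2 alone, and those for HDE + NNK against saline + NNK (138) numbered 81, 42 and 62 under these settings. Leaving out 1 library gave 174 to 199, 110 to 160 and 119 to 160. The counts of NNK comparisons were 0 under all alternatives, DESeq2 and limma included, except 1 gene for the interaction in run 1 alone (Cd274, chosen after its value was seen), and 0 to 0 when leaving out 1 library. For sex the count was 1 to 2, with 2 when the saline only replicate 6 was left out.

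For HDE only against saline only, Marco (-1.59) had -2.23 in run 2 alone, -0.77 with the floor of 87 and -0.63 with sex as a term there, and -1.99 to -1.37 when leaving out 1 library. Msr1 (1.91) had 1.15 with the floor and 1.21 with sex. Raising low values to 87 shrinks both by construction. Cd163 had 0.23, 0.29 and 0.17 with TMM for HDE against saline, without NNK and with NNK, and 0.34 in run 2 alone without NNK.

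Small NNK values changed sign. For HDE + NNK against HDE only, Msr1 (0.08) had -0.37 in run 1 alone, -0.012 with run as a term, -0.053 with the floor, -0.097 with sex and -0.20 without the 2 doubted libraries, which was chosen after seeing the data, and leaving out 1 library gave -0.20 to 0.40. Cd163 (0.00) had 0.0080 with all panel housekeeping genes, 0.056 with background subtraction, 0.36 with positive controls and 0.33 in run 2 alone, and -0.18 to 0.30 when leaving out 1 library. For saline + NNK against saline only, Marco (0.11) had -0.047 in run 1 alone and -0.043 to 0.31 when leaving out 1 library, Msr1 (0.23) had -0.011 in run 2 alone, -0.37 with the floor and -0.34 with sex, and Cd163 (0.13) had -0.13 in run 1 alone. For NNK over both exposures, Msr1 (0.16) had -0.085 in run 1 alone, -0.21 with the floor and -0.22 with sex, and Cd163 (0.07) had -0.24 in run 1 alone and -0.0020 with run as a term, with -0.023 to 0.22 when leaving out 1 library. For the interaction, Marco (0.86) had -0.10 with sex on the counts with the floor, Msr1 (-0.16) had 0.66 in run 2 alone, 0.32 with the floor and 0.24 with sex, and -0.43 to 0.17 when leaving out 1 library, and Cd163 (-0.13) had 0.0063 in run 2 alone and -0.31 to 0.17 when leaving out 1 library. Marco in HDE + NNK against HDE only stayed above 0 throughout (0.07 to 1.83), and leaving out 1 library gave 0.76 to 1.37. The log2 Marco to Msr1 ratio after NNK in saline lungs (-0.12) was 0.36 in run 2 alone and 0.084 without the doubted libraries. It was -0.37 in run 1 alone and -0.37 with background subtraction, and leaving out 1 library gave -0.33 to 0.084. In HDE lungs (0.92) leaving out 1 library gave 0.69 to 1.18, and background subtraction gave 1.33.

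The labels do not say that samples with the same replicate number are paired, and the correlations below do not settle it. Deviations from group means correlated at a median of 0.12 over 28 pairs of libraries with the same number (from -0.23 to 0.51) and at -0.03 over 136 other pairs. With the replicate block, on the counts with the floor, 175 genes were called for HDE against saline, Msr1 had 1.19 there and 1.01 without NNK, Marco had -0.82 without NNK, and Msr1 after NNK had -0.34 in saline lungs, -0.17 over both exposures and 0.35 for the interaction.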
